A study of Homo sapiens with 59 samples.

Results

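The autophagy and lysosome genes described here are 37 genes listed by symbol, of 60675 genes in the deposited table, and all 37 were found there. They comprise 5 genes of the ATG8 family, 5 of initiation and phagophore growth, 3 of the class III phosphoinositide 3-kinase (PI3K) complex, 3 of ATG8 conjugation, 1 cargo receptor, 2 transcription factors, 4 lysosomal membrane proteins, 7 lysosomal hydrolases and 7 subunits of the lysosomal proton pump. No measured value entered the choice by rule, although earlier results of these data were known when the list was drawn up. RNA was sequenced in 59 libraries of HepG2, an established human hepatocellular carcinoma line and the only cell line used, 24 h after treatment. The vehicle group received DMSO (0.1% in the sample labels, 2% in the series text, a difference that could not be settled). The positive control was wortmannin at 10 uM, a fungal metabolite that inhibits PI3K. The 6 herbal medicines were given as hot water extracts. Fresh ginger (Zingiberis Rhizoma Recens) and its dried form (Zingiberis Rhizoma) were applied at 500, 100 and 20 ug/mL, as were Scutellariae Radix, Pinelliae Tuber and Zizyphi Fructus. The doses of Coptidis Rhizoma were 210, 42 and 8.4 ug/mL. Per the series text, an extract whose IC20 lay below 500 ug/mL was given at its IC20 and at dilutions of it, and low RNA concentration led to the exclusion of some samples. Each of the 20 groups held 3 libraries except Pinelliae Tuber 20 ug/mL, which held 2. The labels of the wortmannin and extract groups state no DMSO content, so an effect of DMSO cannot be told apart from the treatment in comparisons with vehicle.

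Autophagy encloses cytoplasm in a double membrane that fuses with the lysosome, where acid hydrolases break the contents down. The ULK1 kinase complex starts the process, the class III PI3K complex marks the membrane with phosphatidylinositol 3-phosphate, and the conjugation proteins attach the ATG8 family, LC3 and GABARAP, to the growing phagophore. The vacuolar proton pump (V-ATPase), built from a membrane part V0 and a soluble part V1, acidifies the lysosome. TFEB and TFE3 are related transcription factors that enter the nucleus when nutrient signalling through mTORC1 falls, and they bind a promoter motif shared by many lysosomal genes, the CLEAR element. In liver cells the pathway is known for the turnover of proteins, lipid droplets and mitochondria in fasting. Only RNA was measured, so neither LC3 lipidation, nor the location of TFEB, nor lysosomal activity was observed.

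Since 2 members are the factors that read the CLEAR element, the members' promoters were searched for it. RefSeq promoter windows (250 bases before to 50 after a start site, GRCh38.p14) were found for 27 of the 37 members. The E-box CACGTG lay in the windows of 7 of these 27 genes (25.9%), against 22 of 108 other pathway genes with a window (20.4%) and 7.26% of all 35116 windows. The longer core TCACGTGA, which contains the E-box, lay in 4 of 27 (14.8%), against 8 of 108 (7.41%) and 0.980% of windows. Each motif reads the same on both strands, and a gene can have several windows, so the share of windows is not on the same basis as the shares of genes, and all are descriptions. The following 5 windows belong to genes whose levels are described later, with the longest motif found in capitals. CTSA lies at chr20:45891298-45891327 (plus strand), NEU1 at chr6:31862930-31862959 (minus), CTSD at chr11:1763957-1763986 (minus), LAMP1 at chr13:113297199-113297228 (plus) and MCOLN1 at chr19:7522571-7522600 (plus).
CTSA: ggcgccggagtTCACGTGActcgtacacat
NEU1: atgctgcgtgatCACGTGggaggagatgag
CTSD: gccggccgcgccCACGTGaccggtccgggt
LAMP1: gacccgcgggaTCACGTGAcgcccgggcgc
MCOLN1: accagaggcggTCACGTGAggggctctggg
CTSA, LAMP1 and MCOLN1 carried the 8-letter core, and NEU1 and CTSD the 6-letter E-box. The other members with an E-box were ATG14 and ATP6V0D1, and LAMP1 held 6 copies of it. A window without these letters says nothing about whether the factor acts on that gene.

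Libraries held 21582593 to 31392071 counts. Levels are given as CPM on library sizes scaled by TMM, and differences are log2 changes ± standard error (SE) from 1 edgeR quasi-likelihood model over all groups, with a threshold of 0.05 on the p adjusted by the method of Benjamini and Hochberg. All adjusted p-values below come from this test, adjusted over 16641 genes. Of the members, 36 passed the filter on low counts, and ATP6V0D2 did so only through the 2 groups in which it was high. MAP1LC3A did not pass, with at most 5 counts in any library. All 9 hepatocyte markers examined were present, and of 13 markers of blood, endothelial, stromal and bile duct cells 5 had a median of at least 1 CPM (CD14, LYZ, PECAM1, PDGFRB and KRT19). Among these 5, LYZ had a median of 1614 CPM, above the hepatocyte marker APOA1 (1045 CPM). KRT19 had a median of 169 CPM and PDGFRB of 9.74 CPM, and CD14 and PECAM1 lay below these. PTPRC, CD3E, COL1A2, DCN and KRT7 had a median of 0. In 3 groups a library stood apart from the rest: Zizyphi Fructus 20 ug/mL (replicate 1), Pinelliae Tuber 100 ug/mL (replicate 3) and dried ginger 500 ug/mL (replicate 1). Mitochondrial transcripts took 9.60% of counts in vehicle and 12.4%, 17.7% and 17.8% with Coptidis Rhizoma at 210, 42 and 8.4 ug/mL, against 9.53% to 10.8% in every other group. As in any bulk sample, fewer cells of a kind and less RNA per cell cannot be told apart. Nothing in the labels says that replicates were separate cultures, so each p-value rests on the spread between samples that may be technical repeats. The sample titles open with a code, A1 for vehicle, 1 for wortmannin and 2 to 4 for the extracts. Its meaning is not stated, and what it marks cannot be told apart from the effect of a treatment against vehicle, whereas the doses of an extract share it. Every title, vehicle included, also carries the label BatchA, whose meaning is not stated either.

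In vehicle, the 4 most abundant of the 37 transcripts per length of the principal transcript encoded lysosomal hydrolases, while the other 3 hydrolases (CTSL, GLA and HEXA) lay at 16.5 to 23.3 CPM per kilobase. NEU1, which encodes the lysosomal sialidase, led with 155.3 ± 1.48 CPM per kilobase (SD, n = 3), followed by its partner CTSA (protective protein, cathepsin A) with 145.4 ± 1.75, and by the proteases CTSD with 126.2 ± 3.75 and CTSB with 97.7 ± 1.45. The ranges of these 4 did not overlap with their neighbours in the order, and LAMP1, a major glycoprotein of the lysosomal membrane, followed with 87.3 ± 0.928. Within the ATG8 family, per kilobase, GABARAP (67.9 ± 1.48) exceeded GABARAPL2 (41.2 ± 0.982) and MAP1LC3B (36.9 ± 0.945), and GABARAPL1 lay far lower at 3.95 ± 0.191. GABARAPL2, LAMP2 and ATP6V0D1 had overlapping ranges, as had NPC1, GLA, WIPI1 and ATG13. The lowest of the members expressed in every vehicle library were GABARAPL1, ATG2A, ULK1 and ATG7, between 3.07 and 3.95 CPM per kilobase. ATP6V0D2 (1 count over the 3 vehicle libraries) and MAP1LC3A (2 counts) were near 0.

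**Figure D1:**
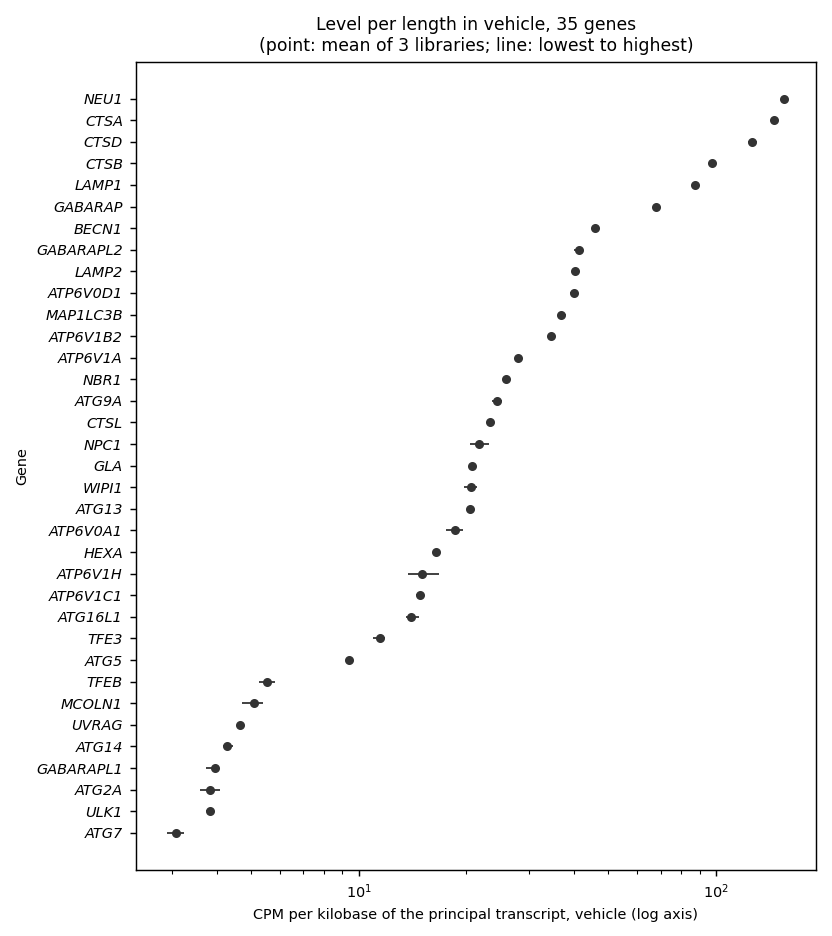
Level of 35 members in the vehicle libraries, in CPM per kilobase of the principal transcript on a log axis; points are means of 3 libraries and lines run from the lowest to the highest library. Levels ran from 155.3 for NEU1 to 3.07 for ATG7, and MAP1LC3A and ATP6V0D2, which had libraries at 0, are left out.

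Across treatments, the members rose more often than they fell at the top doses of both gingers, Scutellariae Radix and Coptidis Rhizoma, moved little with Pinelliae Tuber and Zizyphi Fructus, and fell more often than they rose at the middle dose of Scutellariae Radix. With Coptidis Rhizoma 210 ug/mL, 22 of 36 members rose and 4 fell, where 34.8% of all tested genes rose and 34.5% fell. The members' median change was 0.27 on the log2 scale, against a median of 0.00 over all genes. By a stricter rule that also asks for a log2 change of at least 0.5, 15 members rose (all genes, 20.5%) and only NEU1 fell (all genes, 20.9%). With Scutellariae Radix 500 ug/mL 23 rose and 4 fell (all genes, 24.7% and 25.5%; median 0.19). Fresh ginger at 500 ug/mL raised 19 and lowered 5 (all genes, 23.5% and 22.5%; median 0.14), and dried ginger at 500 ug/mL raised 18 and lowered 3 (all genes, 21.5% and 20.9%; median 0.15). The medians over all genes lay within 0.02 of 0 in these comparisons and with wortmannin. Counts with Scutellariae Radix and Coptidis Rhizoma at the top doses include ATP6V0D2, which had to differ to be tested at all.

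Lower doses changed fewer members. At 42 ug/mL Coptidis raised 20 and lowered 2 of 36 (all genes, 23.4% and 23.5%; median 0.21), and at 8.4 ug/mL it raised 7 and lowered 0 (all genes, 8.58% and 7.39%; median 0.07), or 4 without replicate 2 of vehicle. These counts depended on scaling. With plain library totals, the median over all genes shifted by -0.12, -0.16 and -0.15 at 210, 42 and 8.4 ug/mL, and the members gave 19 rises and 10 falls, 11 and 12, and 0 and 13. Changes below are therefore relative to a median gene, and the contrast of top against bottom dose within Coptidis, which shifted by 0.03, depends less on this choice. The part of the mitochondrial share in these results was not tested.

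Fresh ginger at 100 ug/mL raised 10 members and lowered 7 (all genes, 12.1% and 10.2%), and dried ginger at 100 ug/mL raised 6 and lowered 4 (all genes, 9.76% and 7.75%). Scutellariae Radix at 100 ug/mL raised only GLA and CTSA and lowered 7 (all genes, 7.27% and 7.34%; median -0.07), or 5 calls in all without its replicate 1. At 20 ug/mL it raised GLA and lowered WIPI1, ATG13 and NBR1 (all genes, 2.57% and 2.17%). Fresh ginger at 20 ug/mL lowered 1 member and raised 0 (LAMP2, -0.12; all genes, 2.35% lower and 2.75% higher) and leaving out any of 5 of the 6 libraries compared ended that call. Dried ginger at 20 ug/mL gave 0 calls by edgeR and by DESeq2, and 3 at an unadjusted edgeR p under 0.05 (all genes in either direction, 0.0841%). Zizyphi at 20 ug/mL lowered NBR1 (-0.19) and raised 0 members (all genes, 0.763% lower and 1.23% higher), a call lost without its replicate 1, which stood apart, or replicate 1 of vehicle. Pinelliae Tuber at 500 ug/mL raised ULK1, ATG13, TFE3 and CTSD and lowered 0 members (all genes, 2.64% and 1.93%), by 0.11 to 0.23, and Zizyphi Fructus at 500 ug/mL raised TFE3, NPC1, CTSA and ATP6V0A1 and lowered BECN1 (all genes, 2.09% and 1.53%), none by more than 0.19. Each of these 9 small calls was lost when some single library was left out. Pinelliae at 100 and 20 ug/mL and Zizyphi at 100 ug/mL gave 0 calls by edgeR (all genes in either direction, 0.204%, 0.00601% and 0.228%). At an unadjusted p under 0.05 edgeR gave 3, 1 and 8 members in these groups, and DESeq2 called 0, 0 and 1.

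Wortmannin raised 13 members and lowered 4 (all genes, 16.2% and 16%), with a median of 0.08 against 0.02 over all genes. Of the 7 hydrolases 6 rose, and GLA fell, as did ATG16L1, ATG5 and TFE3. All comparisons with vehicle share its 3 libraries, so their values are given side by side by role below. Members given library by library were mostly chosen among called members without overlap. The absence of overlap reported for them is therefore no added support for the calls. The share of all genes without overlap was not computed.

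**Figure D2:**
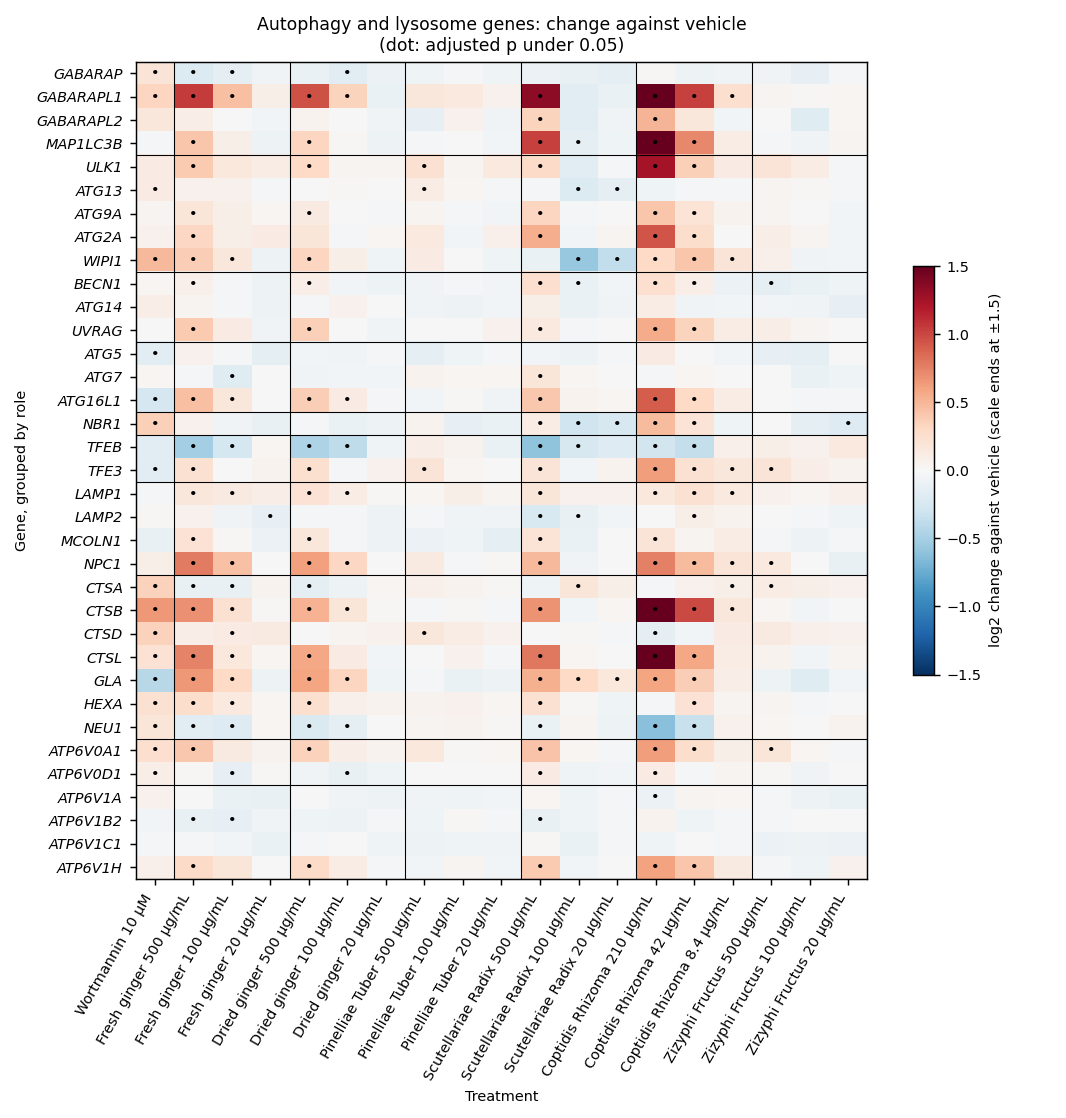
Log2 change against vehicle (colour, scale ends at 1.5 in either direction) of 35 members (rows, grouped by role) with 19 treatments (columns); a dot marks an adjusted p under 0.05. Rises such as those of GABARAPL1, CTSB and CTSL with both gingers, Scutellariae and Coptidis stand beside falls of TFEB and NEU1; MAP1LC3A and ATP6V0D2 are not drawn.

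In the ATG8 family, whose proteins are lipidated onto the phagophore, GABARAPL1 and MAP1LC3B rose with both gingers, Scutellariae and Coptidis at their top doses, where GABARAP fell with fresh ginger and was otherwise not called. GABARAPL1 stood at 7.90, 7.29 and 7.97 CPM in vehicle and at 36.8, 34.03 and 34.3 with Coptidis 210 ug/mL. It stood at 19.2, 18.8 and 20.7 with Scutellariae 500 ug/mL, 15.8, 15.6 and 16.6 with fresh and 16.6, 14.6 and 13.8 with dried ginger 500 ug/mL. Every library of these 4 groups lay above every vehicle library. The log2 changes were 2.18 ± 0.072, adjusted p = 3.06e-31 for Coptidis, 1.34 ± 0.075, adjusted p = 4.56e-21 for Scutellariae, 1.05 ± 0.077, adjusted p = 1.26e-16 for fresh and 0.96 ± 0.077, adjusted p = 4.54e-15 for dried ginger, folds of 4.53, 2.54, 2.07 and 1.94. The response was graded with Coptidis (1.03 at 42 and 0.26 at 8.4 ug/mL, the latter lost without replicate 2 of vehicle or replicate 1 of that group) and with fresh ginger (0.45 at 100 and 0.09, not called, at 20 ug/mL). Scutellariae was not graded: at 100 and 20 ug/mL the values were -0.16 and -0.10, neither called. Wortmannin gave 9.92, 9.46 and 9.50 CPM, all above vehicle, a change of 0.32 ± 0.081 (adjusted p = 0.00154).

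MAP1LC3B, the main LC3 gene expressed here, stood at 97.7, 102 and 97.5 CPM in vehicle, 349, 329 and 334 with Coptidis 210 ug/mL and 197, 196 and 211 with Scutellariae 500 ug/mL. The 3 groups did not overlap, with changes of 1.77 ± 0.049, adjusted p = 2.97e-34 and 1.02 ± 0.049, adjusted p = 1.46e-23. The gingers at 500 ug/mL gave 0.42 ± 0.050 (fresh) and 0.32 ± 0.050 (dried), both called. Wortmannin did not move it detectably: its libraries at 95.5, 99.8 and 95.1 CPM overlapped vehicle, with a change of -0.03 ± 0.050 (adjusted p = 0.669). GABARAPL2 rose with Coptidis 210 ug/mL (0.51 ± 0.079) and Scutellariae 500 ug/mL (0.33 ± 0.080) and was not called elsewhere. GABARAP, the most abundant of the family, went from 110.2, 109 and 114 CPM in vehicle to 97.5, 95.7 and 96.5 with fresh ginger 500 ug/mL, a fall with no overlap (-0.20 ± 0.046, adjusted p = 2.81e-04), and to 131, 126 and 123 with wortmannin, a rise with no overlap (0.19 ± 0.045, adjusted p = 7.75e-04). MAP1LC3A held 0 to 5 counts in every library and was not tested. The near-identical GABARAPL3 and MAP1LC3B2 held at most 1 and 57 counts per library. MAP1LC3B overlaps FBXO31 on the opposite strand (median 134.9 CPM), and no source used here says whether the counting used strand.

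Among the genes of initiation and phagophore growth, ULK1, ATG9A, ATG2A and WIPI1 rose with Coptidis 210 ug/mL and ATG13, the ULK1 partner, did not pass the test (-0.06). ULK1, the kinase that starts autophagy, went from 20.4, 19.8 and 20.8 CPM in vehicle to 46.6, 51.8 and 46.02 with Coptidis 210 ug/mL, a change of 1.24 ± 0.064, adjusted p = 3.59e-23 with no overlap. It rose by 0.39 with fresh ginger, 0.30 with dried ginger and 0.29 with Scutellariae at 500 ug/mL, and with wortmannin it stood at 0.13 (adjusted p = 0.154). ATG2A, a lipid transfer protein of the growing membrane, rose with Coptidis 210 ug/mL (0.94 ± 0.075) and Scutellariae 500 ug/mL (0.54 ± 0.076). ATG9A, the lipid scramblase of the seed vesicles, rose by 0.42 and 0.32 with the same extracts.

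WIPI1, which binds phosphatidylinositol 3-phosphate on the phagophore, rose in some groups and fell in others. It stood at 36.2, 37.9 and 39.4 CPM in vehicle, at 52.2, 53.7 and 53.0 with wortmannin and at 48.01, 47.6 and 50.7 with fresh ginger 500 ug/mL. Both groups lay wholly above vehicle (0.49 ± 0.047, adjusted p = 6.91e-12 and 0.37 ± 0.048, adjusted p = 5.51e-09). With Scutellariae it stood at 34.8, 36.2 and 34.96 CPM at 500 ug/mL, 24.9, 24.4 and 27.02 at 100 ug/mL and 26.7, 29.5 and 31.6 at 20 ug/mL. The lower 2 doses lay wholly below vehicle (-0.57 ± 0.051, adjusted p = 1.05e-12 and -0.37 ± 0.050, adjusted p = 5.54e-07), while the top dose was not called (-0.10). Scutellariae thus gave its lowest WIPI1 level at the middle dose. ATG13 followed the same order, with -0.21 ± 0.030 at 100 and -0.13 ± 0.030 at 20 ug/mL, both called, and -0.02 ± 0.030 at 500 ug/mL, not called. WIPI1 overlaps ARSG on the opposite strand (median 11.9 CPM).

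**Figure D3:**
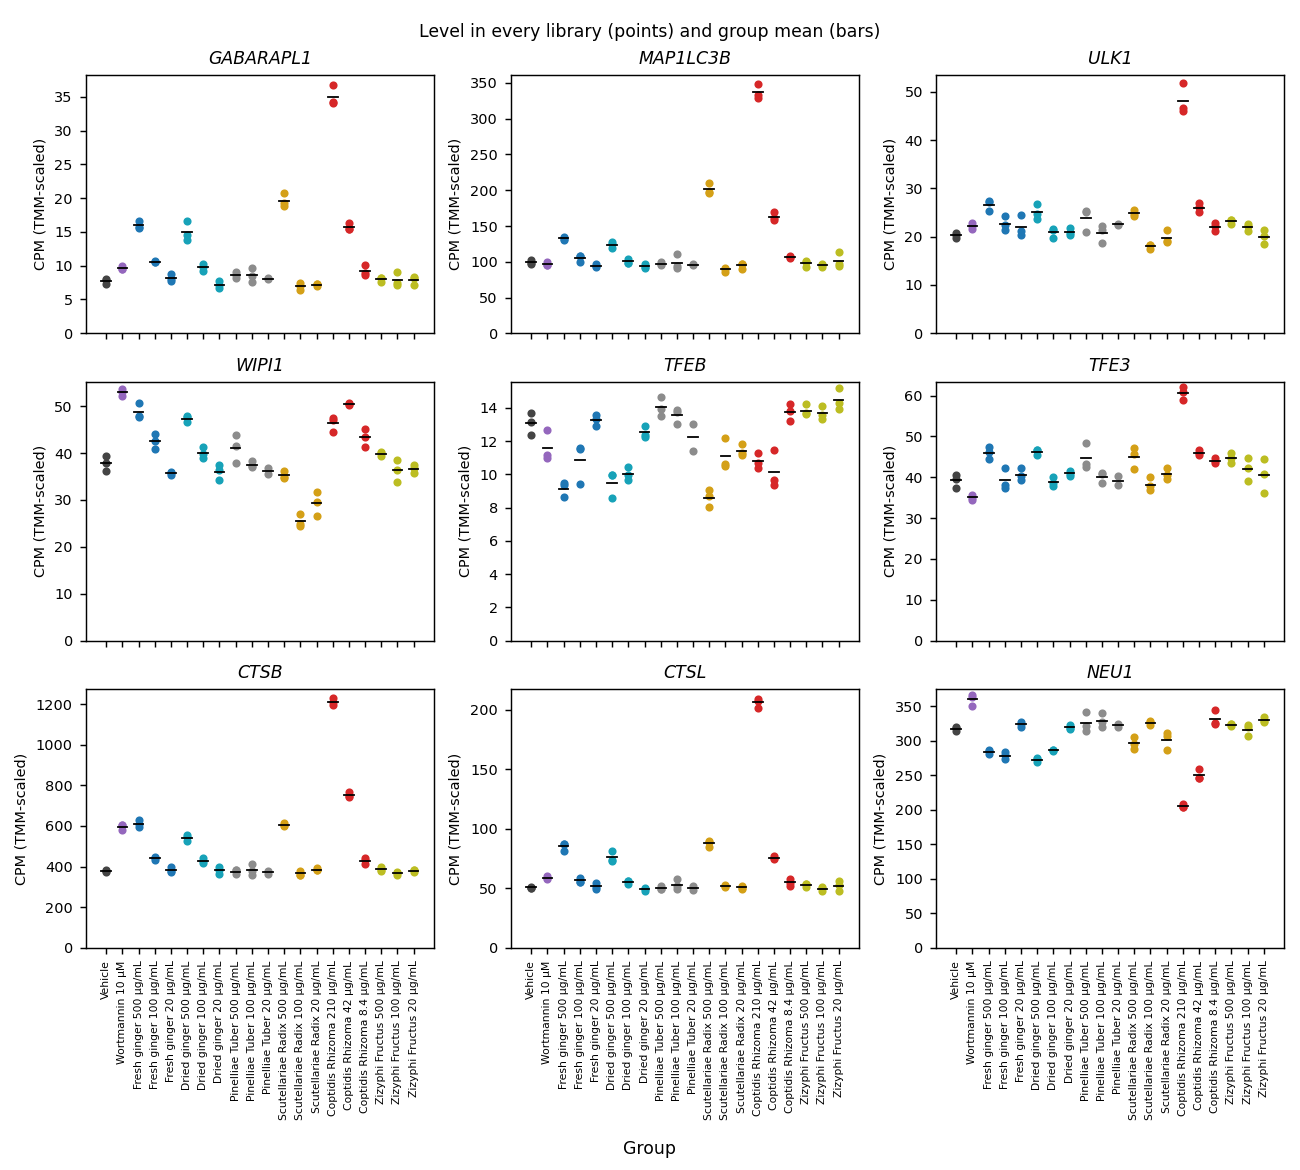
CPM of 9 members in each of the 59 libraries (points), with group means as bars, for vehicle, wortmannin and the extracts at falling dose; every axis starts at 0. GABARAPL1, MAP1LC3B, ULK1, CTSB and CTSL were highest with Coptidis Rhizoma 210 ug/mL, TFEB and NEU1 were low there, and WIPI1 was lowest with Scutellariae Radix 100 ug/mL.

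In the class III PI3K complex, changes were smaller. UVRAG, a subunit linked to maturation of the autophagosome, rose with Coptidis 210 ug/mL (0.55 ± 0.051), fresh ginger (0.39 ± 0.052), dried ginger (0.35 ± 0.052) and Scutellariae 500 ug/mL (0.15 ± 0.053, lost without replicate 3 of that group, adjusted p = 0.088). BECN1, the scaffold of the complex, rose by 0.25 with Coptidis 210 ug/mL and 0.25 with Scutellariae 500 ug/mL. ATG14, which directs the complex to phagophores, was called in no comparison with vehicle. With wortmannin, an inhibitor of this enzyme class, UVRAG stood at 0.01, BECN1 at 0.03 and ATG14 at 0.10, none called. BECN1 overlaps PSME3 on the opposite strand (median 252.8 CPM).

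Of the conjugation genes, ATG16L1 moved and its partner ATG5 and the activating enzyme ATG7 hardly did. ATG16L1, which places the conjugation machinery on the membrane, stood at 50.1, 46.1 and 46.3 CPM in vehicle, 91.3, 89.9 and 87.1 with Coptidis 210 ug/mL and 39.4, 39.1 and 40.8 with wortmannin. Coptidis lay above and wortmannin below vehicle, without overlap (0.91 ± 0.041, adjusted p = 9.82e-26 and -0.26 ± 0.043, adjusted p = 4.16e-06). It also rose with fresh ginger (0.45), dried ginger (0.37) and Scutellariae (0.41) at 500 ug/mL. ATG5 was called against vehicle only with wortmannin (-0.17 ± 0.063, adjusted p = 0.0353), a call that 4 of 6 omissions of a single library ended. ATG7 was called with Scutellariae 500 ug/mL (0.18) and fresh ginger 100 ug/mL (-0.18), and both calls were likewise lost without some single libraries. On the opposite strand ATG7 overlaps VGLL4 (median 31.9 CPM) and CTSA overlaps PLTP (18.4 CPM).

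NBR1, the only cargo receptor among the members, binds ubiquitinated cargo and LC3. It stood at 122, 121 and 118 CPM in vehicle, 161, 169.8 and 173 with Coptidis 210 ug/mL and 155, 153 and 154 with wortmannin, both groups above vehicle without overlap (0.48 ± 0.037, adjusted p = 3.14e-16 and 0.35 ± 0.038, adjusted p = 9.49e-11). With Scutellariae it fell to 93.3, 99.1 and 100.3 CPM at 100 ug/mL and to 102, 99.5 and 103 at 20 ug/mL (-0.30 ± 0.038, adjusted p = 2.67e-08 and -0.24 ± 0.038, adjusted p = 1.17e-05), again without overlap, and it rose by 0.11 at 500 ug/mL. NBR1 thus shared with WIPI1 and ATG13 a low level at the lower doses of Scutellariae. The gingers at 500 ug/mL did not change it detectably (0.06 ± 0.038 fresh, -0.03 ± 0.038 dried).

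The transcription factors TFEB and TFE3 went opposite ways with both gingers, Scutellariae and Coptidis at their top doses. TFEB stood at 13.7, 12.4 and 13.1 CPM in vehicle and at 9.06, 8.68 and 8.06 with Scutellariae 500 ug/mL. Fresh ginger 500 ug/mL gave 8.62, 9.34 and 9.48, dried ginger 8.57, 9.93 and 9.96 and Coptidis 210 ug/mL 11.3, 10.7 and 10.4. All 12 treated libraries lay below the lowest vehicle library, with changes of -0.60 ± 0.075, adjusted p = 1.72e-09 (Scutellariae), -0.51 ± 0.075, adjusted p = 9.72e-08 (fresh ginger), -0.46 ± 0.074, adjusted p = 8.79e-07 (dried ginger) and -0.28 ± 0.072, adjusted p = 7.18e-04 (Coptidis). TFE3 stood at 39.6, 37.5 and 40.5 CPM in vehicle and 60.8, 61.98 and 59.01 with Coptidis 210 ug/mL, a rise without overlap (0.63 ± 0.052, adjusted p = 2.44e-15). Its rises at 500 ug/mL were 0.20 ± 0.053 with Scutellariae, 0.23 ± 0.053 with fresh and 0.24 ± 0.053 with dried ginger. With wortmannin TFEB stood at -0.17 ± 0.071 (adjusted p = 0.0573) and TFE3 at -0.16 ± 0.054 (adjusted p = 0.018). The TFE3 value with wortmannin lost its call without replicate 3 of vehicle (adjusted p = 0.068) or replicate 2 of wortmannin (adjusted p = 0.059).

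Of the lysosomal membrane proteins, NPC1, which exports cholesterol from the lysosome, changed most. It stood at 110.2, 106 and 119 CPM in vehicle, 192, 192 and 191 with fresh ginger, 165, 174 and 176 with dried ginger, 152, 155 and 165 with Scutellariae at 500 ug/mL and 183, 190.1 and 192 with Coptidis 210 ug/mL. All 4 groups lay above vehicle, by 0.78 ± 0.041, adjusted p = 7.41e-22, 0.62 ± 0.041, adjusted p = 5.34e-18, 0.49 ± 0.041, adjusted p = 1.43e-14 and 0.75 ± 0.041, adjusted p = 4.06e-22. NPC1 overlaps RMC1 on the opposite strand (median 15.2 CPM). LAMP1 rose by 0.18, 0.21, 0.18 and 0.15 with the same groups, the last lost with plain library totals (0.04, adjusted p = 0.45). LAMP2, the receptor side of chaperone-mediated autophagy, fell with Scutellariae 500 ug/mL from 162, 163 and 163 to 137, 143 and 138 CPM, without overlap (-0.22 ± 0.034, adjusted p = 2.43e-07), and was at 0.00 with Coptidis 210 ug/mL. MCOLN1, the lysosomal calcium channel, rose by 0.17 to 0.22 with the 4 extracts at their top doses, and each of these calls was lost without replicate 2 of vehicle. MCOLN1 also overlaps PNPLA6 on the same strand (median 36.7 CPM), which directional counting does not separate.

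The hydrolases split. The cysteine proteases CTSB and CTSL and the alpha-galactosidase GLA rose with the top doses of both gingers, Scutellariae and Coptidis and were not called with Pinelliae or Zizyphi at any dose, while NEU1, its complex partner CTSA and the aspartic protease CTSD fell in some of the same groups. CTSL stood at 50.9, 50.6 and 50.7 CPM in vehicle and 208, 202 and 209 with Coptidis 210 ug/mL, a change of 2.02 ± 0.046, adjusted p = 3.79e-38, or 4.06-fold. CTSB went from 373, 384 and 379 to 1229.7, 1211 and 1194 CPM with Coptidis (1.68 ± 0.037, adjusted p = 1.85e-38) and to 595, 629 and 608 with fresh ginger 500 ug/mL (0.69 ± 0.037, adjusted p = 9.03e-22). Neither gene's groups overlapped. With Scutellariae 500 ug/mL CTSL rose by 0.79 ± 0.047 and CTSB by 0.68 ± 0.037, and with dried ginger 500 ug/mL by 0.58 ± 0.047 and 0.52 ± 0.037. Wortmannin gave 603, 606 and 579 CPM of CTSB, wholly above vehicle and the largest called rise of a member with this inhibitor (0.65 ± 0.037, adjusted p = 9.10e-20), and moved CTSL by 0.21 ± 0.048.

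GLA, deficient in Fabry disease, rose with these 4 extracts and fell with wortmannin. It stood at 27.2, 27.9 and 26.96 CPM in vehicle, 42.1, 42.1 and 44.1 with fresh ginger 500 ug/mL, 42.4, 38.1 and 42.98 with dried ginger 500 ug/mL and 20.2, 21.05 and 20.2 with wortmannin. The ginger libraries all lay above vehicle and the wortmannin libraries all below (0.65 ± 0.048, adjusted p = 2.56e-16, 0.59 ± 0.048, adjusted p = 7.79e-15 and -0.42 ± 0.051, adjusted p = 4.96e-09). Coptidis 210 ug/mL gave 0.59 ± 0.048 and Scutellariae gave 0.54 ± 0.048, 0.30 ± 0.049 and 0.16 ± 0.049 at 500, 100 and 20 ug/mL. The last was lost on leaving out any single library (adjusted p of 0.059 to 0.28).

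NEU1 and CTSA moved the other way. NEU1 stood at 319, 314 and 320.0 CPM in vehicle, 205, 208 and 204 with Coptidis 210 ug/mL and 260.0, 247 and 247 with Coptidis 42 ug/mL. These falls did not overlap with vehicle (-0.63 ± 0.031, adjusted p = 4.69e-24 and -0.34 ± 0.030, adjusted p = 1.69e-13). Falls with the other extracts at 500 ug/mL were -0.22 ± 0.030 (dried ginger), -0.16 ± 0.030 (fresh ginger) and -0.10 ± 0.030 (Scutellariae), whereas wortmannin raised NEU1 to 367, 350.2 and 363 CPM (0.18 ± 0.030, adjusted p = 3.57e-06). CTSA stood at 315, 308 and 314 CPM in vehicle, 391, 404 and 395 with wortmannin and 280.0, 282 and 290.3 with dried ginger 500 ug/mL. Wortmannin lay wholly above and dried ginger wholly below vehicle (0.34 ± 0.032, adjusted p = 1.57e-12 and -0.14 ± 0.032, adjusted p = 3.41e-04). Scutellariae 100 ug/mL raised CTSA to 346, 348 and 373 CPM (0.19 ± 0.032, adjusted p = 1.69e-05), and 500 ug/mL did not (-0.07 ± 0.032, not called).

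CTSD rose with wortmannin from 267, 261 and 277 to 342, 334 and 344 CPM (0.34 ± 0.045, adjusted p = 1.83e-08) and fell with Coptidis 210 ug/mL to 243, 251 and 234 (-0.14 ± 0.045, adjusted p = 0.00421), both without overlap. HEXA, a subunit of beta-hexosaminidase, rose by 0.22 with wortmannin and by 0.22 to 0.26 with both gingers and Scutellariae at 500 ug/mL, and stood at -0.02, not called, with Coptidis 210 ug/mL. Of the 7 members whose promoters held an E-box, CTSA, CTSD, NEU1 and ATP6V0D1 rose with wortmannin. LAMP1 (-0.02), MCOLN1 (-0.11) and ATG14 (0.10) were not called. With wortmannin 13 of all 36 tested members and 16.2% of all genes rose. CTSB, CTSL and HEXA, which are not among the 7, rose too. Windows were found for only 27 of the 37 members, so absence from the 7 can mean that no window was found. A link to the motif was not tested. With Coptidis 210 ug/mL NEU1 and CTSD fell and LAMP1, MCOLN1 and ATP6V0D1 rose by 0.12 to 0.19 (all genes, 34.5% fell and 34.8% rose). Each of these rises was lost with plain library totals. CTSA (-0.03) and ATG14 (0.11) were not called. 

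Among the pump subunits ATP6V0A1 and ATP6V1H rose with both gingers, Scutellariae and Coptidis, and most others moved little. In the membrane part V0, ATP6V0A1, the large subunit of the proton path, stood at 55.7, 53.2 and 59.4 CPM in vehicle and 85.7, 92.4 and 82.3 with Coptidis 210 ug/mL, without overlap (0.63 ± 0.052, adjusted p = 1.93e-15). It rose by 0.43 with Scutellariae, 0.40 with fresh and 0.34 with dried ginger at 500 ug/mL, and by 0.25 with wortmannin. ATP6V0D1, which joins V0 to the central stalk, rose by 0.12 with Scutellariae and 0.12 with Coptidis at their top doses, the latter lost with plain library totals (adjusted p = 0.91). With ginger at 100 ug/mL ATP6V0D1 was called lower (-0.12 fresh and -0.11 dried). In the soluble part V1, ATP6V1H, a regulatory subunit, rose by 0.61 ± 0.070 with Coptidis 210 ug/mL, 0.40 ± 0.071 with Scutellariae, 0.29 ± 0.071 with fresh and 0.28 ± 0.071 with dried ginger at 500 ug/mL. The catalytic subunit ATP6V1A, its partner ATP6V1B2 and the stalk subunit ATP6V1C1 stayed within 0.13 of vehicle in every comparison. ATP6V1B2 fell from 98.3, 98.4 and 101 to 93.3, 92.6 and 90.2 CPM with fresh ginger 500 ug/mL (-0.11 ± 0.036, adjusted p = 0.00975), without overlap, and ATP6V1A fell with Coptidis 210 ug/mL (-0.09 ± 0.038, adjusted p = 0.0388).

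ATP6V0D2, a V0 subunit known from bone-resorbing cells and kidney, appeared with 2 extracts. It had 0, 0 and 1 counts in the vehicle libraries, 27, 29 and 37 counts with Scutellariae 500 ug/mL and 22, 31 and 29 with Coptidis 210 ug/mL. No library of these groups came near vehicle, and no library of another group held more than 3 counts. The ratio of summed counts to vehicle, per library total, was 98.9 (95% exact interval 17.3 to 3947) for Scutellariae and 76.1 (13.3 to 3041) for Coptidis, intervals that cover counting error only. These 2 groups were set against vehicle because they were high, so the intervals describe the counts and are no test. Since the gene entered the test only through these groups, no p is given for it, and the fitted log2 changes depend on the prior count and are not given. At 100 and 20 ug/mL Scutellariae gave 0 counts in every library, and Coptidis at 42 and 8.4 ug/mL gave 2 and 1 counts over 3 libraries. The level with Scutellariae 500 ug/mL was 1.09, 1.20 and 1.49 CPM in the 3 libraries.

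Within an extract, the contrast of its highest with its lowest dose keeps to 1 title code. Its difference of means uses no vehicle library and no library of another extract. The estimate of spread, the scaling and the filter come from the model over all groups, so the SE and p-values are not separate in this way. In these contrasts 26 members were higher and 3 lower at the top dose of Scutellariae (all genes, 24.5% and 25.4%), 22 and 5 with Coptidis (all genes, 33% and 32.8%), both with ATP6V0D2 among the higher, which had to differ to be tested, 23 and 4 with fresh ginger (all genes, 24.4% and 23.6%) and 18 and 3 with dried ginger (all genes, 20.9% and 20.1%). The members' medians were 0.24, 0.25, 0.18 and 0.16, against medians over all genes of 0.01, -0.01, -0.01 and -0.01. Pinelliae gave 2 higher, ATG13 and NBR1, and 0 lower (all genes, 1.2% and 0.703%) and Zizyphi 4, ULK1, NBR1, NPC1 and ATP6V0A1, and 0 (all genes, 4.39% and 2.82%). Leaving out 1 library moved these small counts between 0 and 3 and between 2 and 8.

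Across the 4 extracts with many changes, 14 of 36 members were higher at the top dose in all 4 contrasts, where 11.3% of all tested genes were. They were GABARAPL1, MAP1LC3B, ULK1, ATG9A, ATG16L1, BECN1, UVRAG, TFE3, NPC1, CTSB, CTSL, GLA, ATP6V0A1 and ATP6V1H. TFEB and CTSA were lower in all 4, where 11% of all genes were. TFEB fell by 0.54 with fresh ginger, 0.40 with dried ginger, 0.41 with Scutellariae and 0.35 with Coptidis. CTSA fell by 0.16, 0.16, 0.16 and 0.12 in the same order. Against vehicle, CTSA was not called at the top doses of Scutellariae and Coptidis. The bottom dose of Coptidis was called above vehicle, a call that reversed with plain library totals. ATP6V1A and LAMP2 were higher in 1 contrast and lower in another, and ATP6V1C1 was called in none. ATG14 and ATG5 were each higher in 2 of the 4 contrasts and lower in 0. The gingers are both from the rhizome of the same plant, so these 4 contrasts are not 4 unrelated materials. The list was drawn up with earlier results of these data known, and the extracts were set side by side after their counts were seen.

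The sizes are given side by side by extract. From bottom to top dose GABARAPL1 rose by 1.92 ± 0.070 with Coptidis, 1.45 ± 0.076 with Scutellariae, 1.06 ± 0.077 with dried and 0.96 ± 0.075 with fresh ginger. MAP1LC3B rose by 1.66 ± 0.049 and 1.08 ± 0.050 with Coptidis and Scutellariae and by 0.49 ± 0.050 and 0.40 ± 0.050 with fresh and dried ginger. NPC1 rose by 0.77 ± 0.041 for fresh and 0.62 ± 0.041 for dried ginger, 0.56 ± 0.041 for Coptidis and 0.48 ± 0.041 for Scutellariae. Differences between extracts were not tested, and their doses differ. NEU1 fell by 0.69 with Coptidis, 0.23 with dried and 0.19 with fresh ginger, and stood at -0.03 ± 0.030 with Scutellariae, not called. WIPI1 was higher at the top dose of fresh ginger (0.45), dried ginger (0.39) and Scutellariae (0.27), where the bottom dose of Scutellariae lay below vehicle.

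**Figure D4:**
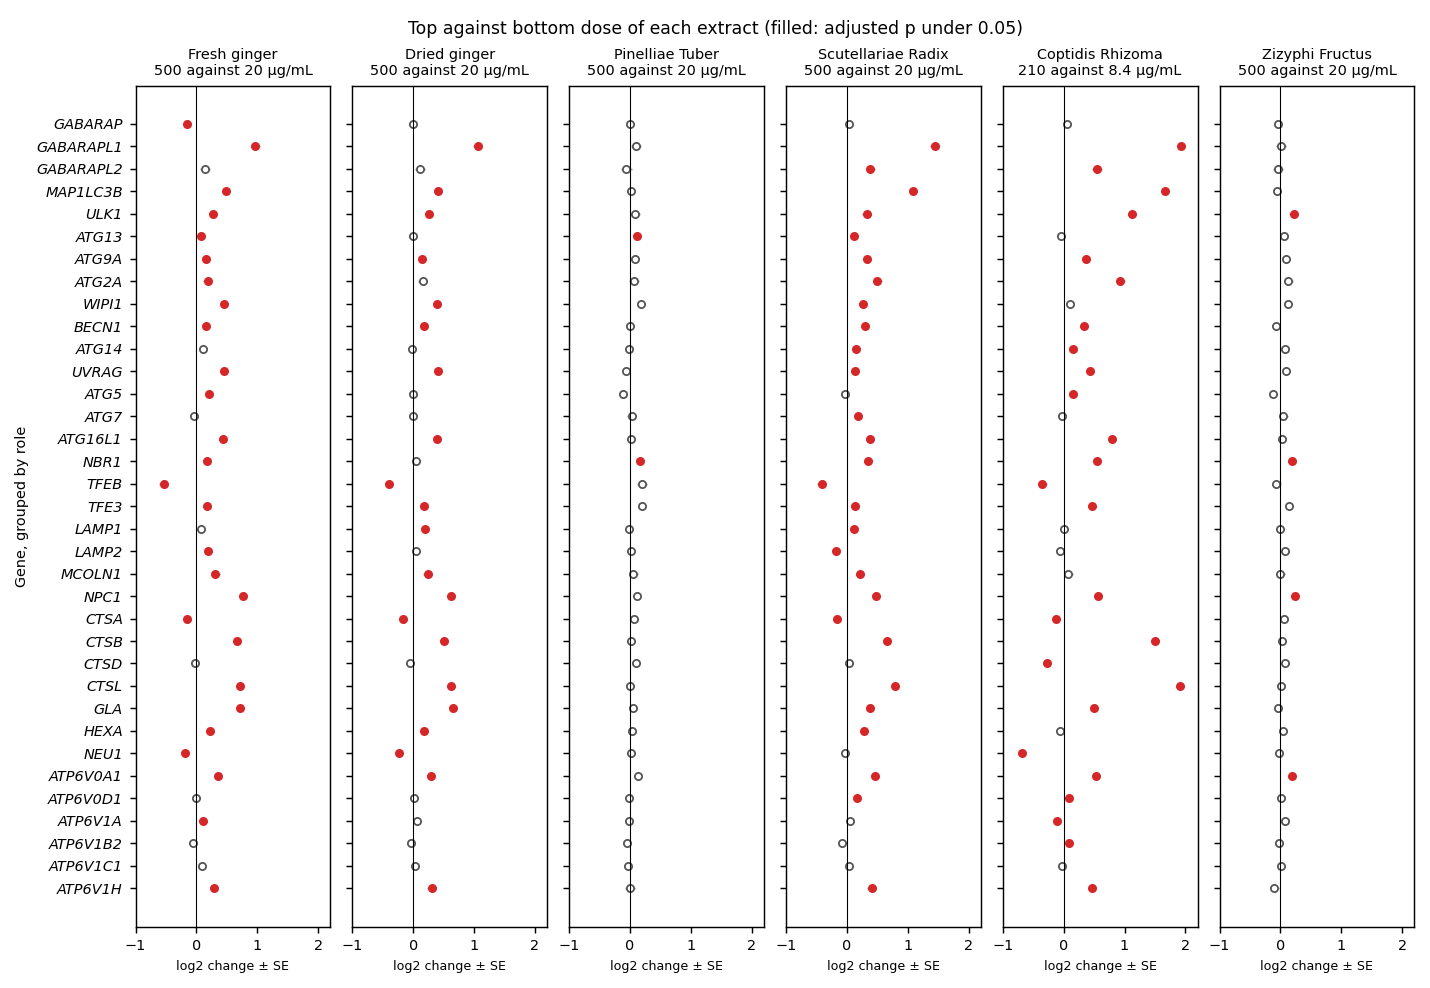
Log2 change ± SE of 35 members from lowest to highest dose, in 1 panel per extract (6 extracts); filled points have an adjusted p under 0.05, and SE bars shorter than a point are hidden by it. Most called points of Coptidis, Scutellariae and the gingers lie right of 0, TFEB and CTSA lie left of it in all 4, and Pinelliae and Zizyphi stay near 0.

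Fresh and dried ginger at the same dose differed in few members. At 500 ug/mL 3 of 36 were higher with fresh ginger and 0 lower (all genes, 0.961% and 0.871%). CTSB stood at 595, 629 and 608 CPM with fresh and 555, 547 and 527 with dried ginger (0.17 ± 0.036, adjusted p = 0.00443), and NPC1 at 192, 192 and 191 and 165, 174 and 176 (0.16 ± 0.040, adjusted p = 0.0229), without overlap in either. CTSL differed by 0.17 ± 0.045 with overlapping libraries. Fitted with these 2 groups alone, 0 members were called, and without replicate 1 of dried ginger, which stood apart, the NPC1 difference was 0.13 (adjusted p = 0.24). At 100 and 20 ug/mL edgeR called 0 members, as did DESeq2, and 4 and 3 had an unadjusted edgeR p under 0.05 (all genes called in either direction, 0.379% and 0.0481%). A missed threshold does not show that the gingers act alike.

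The pathway holds many genes beyond the members. Of 135 others in 6 lists, 124 were tested, and with wortmannin 49 rose and 8 fell, with a median of 0.11. Of 36 other hydrolases and activators 24 rose and 2 fell (median 0.20), of 19 other membrane proteins 10 rose and 0 fell, and of 14 other pump subunits 3 rose and 1 fell, where 16.2% and 16% of all genes did. With Coptidis 210 ug/mL 57 rose and 35 fell (median 0.08), where 34.8% and 34.5% of all genes did. Of 27 other genes of the autophagy machinery 17 rose and 4 fell (median 0.31), and the 36 other hydrolases gave 13 and 13 (median 0.01). Differences between these lists were not tested. Scutellariae 500 ug/mL raised 50 and lowered 26, fresh ginger 500 ug/mL 44 and 16, and dried ginger 500 ug/mL 45 and 12. The shares of all genes given above for each comparison are the yardstick for these counts.

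SQSTM1 was among the 3 largest rises with both gingers, Scutellariae and Coptidis. With Coptidis 210 ug/mL the cargo receptor SQSTM1 (p62) rose from a mean of 232 CPM in vehicle to 1270.3 CPM (2.45 ± 0.041), and PLEKHM1, an adaptor for lysosome fusion, rose by 2.30 ± 0.069, as did ATG9B (2.10 ± 0.33). The activator protein GM2A fell by 1.66, the acid lipase LIPA by 1.09 and the pump subunit ATP6V0E2 by 1.05, all called. ATG9B lay under 2 CPM in vehicle, and its SE was wide here and in the comparisons below. Scutellariae 500 ug/mL raised ATG9B (1.45 ± 0.35), SQSTM1 (1.31 ± 0.040, to a mean of 576 CPM) and PLEKHM1 (1.22 ± 0.071). It lowered ATP6V1B1 (-1.09 ± 0.38) and MITF (-0.99 ± 0.39), both under 1 CPM, and the sulfatase ARSB (-0.82 ± 0.032). Fresh and dried ginger at 500 ug/mL raised SQSTM1, by 1.52 ± 0.040 and 1.47 ± 0.040, and the sulfatase IDS, by 1.14 ± 0.066 and 0.99 ± 0.066. The next largest rise was that of ATG9B with fresh (0.95 ± 0.37) and of PLEKHM1 with dried ginger (0.78 ± 0.073). Both lowered ATP6V1B1 (-0.92 ± 0.37 and -1.16 ± 0.38), ATP6V0E2 (-0.64 ± 0.044 and -0.45 ± 0.043) and GM2A (-0.54 ± 0.040 and -0.52 ± 0.040), in the order fresh and dried. With wortmannin the largest rises were in genes under 2 CPM, ATP6V1G2 (1.19 ± 0.39), ATG9B (0.93 ± 0.37) and RRAGD (0.77 ± 0.23), while ATP6V1C2, WDR45B and CTSC fell by 0.50, 0.26 and 0.25. ATP6V0E2 rose with Scutellariae at 100 and 20 ug/mL (0.58 ± 0.042 and 0.37 ± 0.043), the doses at which WIPI1 and NBR1 were low.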

How the data were processed

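The authors deposited 1 table of expected counts per gene for 60675 genes, unnormalized. Per the submitters' processing notes the tools were STAR 2.7.3a, RSEM 1.3.3, FastQC 0.11.9 and Trim Galore 0.6.5, with the build GRCh38. Annotation and strand setting: not given in the sources used here. Among nonzero values 24.44% were not whole, as estimated counts need not be, and all were rounded. The table holds 208 further columns that match no sample analysed here, and they were not used.

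Library totals ran from 21582593 to 31392071 (median 25834177). Genes were filtered with edgeR's default rule, scaled by TMM and fitted with the quasi-likelihood test in edgeR 4.0.16 (R 4.3.3), with all 20 groups in 1 model (39 residual degrees of freedom), no covariate and p-values adjusted over 16641 genes. The script was tested on simulated data. Replicate pairs differed by more than sampling noise (chi-square per gene 2.06 to 39.1), so none was counted as 1 library. Libraries with a value above 15 against every other library of their group were said to stand apart. Gene overlaps and transcript lengths came from GENCODE release 29.

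The members and all lists were chosen with earlier results of these data known. In each comparison the rule for genes given by library took the 4 largest rises and 4 largest falls among called members without overlap, and other pathway genes were named by the 3 largest in each direction. A member alone in its role, or leading it in level, could be named too, and further members are named for a role's account after their values were seen. The alternatives tried were DESeq2 1.42.0, RLE scaling, plain library totals, other filters, a replicate block, fits of the 2 groups alone, and leaving out libraries. Intervals of count ratios are exact at 95% and cover counting error only.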

Additional observations from a re-analysis of the deposited data

How the results depend on the processing

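Of 308 called changes of members over the 28 comparisons, 217 held in every alternative, as did all 70 of at least 0.5 on the log2 scale. Both counts include ATP6V0D2, which had to differ to be tested. The 70 were chosen for their size in these same data, so that they held is no independent support. Leaving out 1 library at a time gave 1846 values for the 308 calls, of which 208 lost the call and 0 reversed. Of the 308 calls, the other alternatives lost 5 with DESeq2, 1 with RLE scaling, 1 with a 1 CPM filter, 52 with no filter, 21 with the 2 groups alone and 3 without the 3 libraries that stood apart. With plain library totals 36 were lost and 4 reversed: BECN1 and LAMP2 with Coptidis 42 ug/mL (-0.068 and -0.071) and LAMP1 and CTSA with Coptidis 8.4 ug/mL (-0.0094 and -0.061). This scaling also lowered the share of rises among all called genes, with fresh ginger from 54.3% to 39.4% at 100 and from 53.9% to 34.3% at 20 ug/mL, with dried ginger 100 ug/mL from 55.7% to 34.8%, with Coptidis from 49.97% to 23.6% at 42 and from 53.7% to 7.36% at 8.4 ug/mL, and with Zizyphi from 57.7% to 38.6% at 500 and from 57.9% to 31.7% at 100 ug/mL. At the top doses the share went from 51.2% to 43.9% with fresh ginger, 50.8% to 42.7% with dried ginger and 50.2% to 40.8% with Coptidis. It rose from 49.3% to 52.9% with Scutellariae 500 ug/mL and from 50.4% to 52.1% with wortmannin. Between doses it went from 63.0% to 52.7% for Pinelliae and from 60.9% to 42.4% for Zizyphi, and between the gingers at 20 ug/mL from 87.5% to 75.0%. The cause of the lost and reversed calls was not tested.

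Counts of called members moved by over 1.5 times mostly where they were small. Fresh ginger 20 ug/mL (1 call) gave 2 with plain totals, 0 with no filter, 7 without the libraries that stood apart, 4 with the 2 groups alone and 3 with DESeq2. Coptidis 8.4 ug/mL (7) gave 13 with plain totals and 11 without the libraries that stood apart. Scutellariae 20 ug/mL (4) gave 2 with no filter. Zizyphi 500 ug/mL (5) gave 2 with plain totals and 2 with no filter, and Zizyphi 100 ug/mL (0) gave 1, 2, 2 and 1 with plain totals, without the libraries that stood apart, with the 2 groups alone and with DESeq2. Pinelliae between doses (2) gave 0 with plain totals, 0 with no filter and 4 without the libraries that stood apart, and Zizyphi between doses (4) gave 2 without them. With the 2 groups alone, Pinelliae 500 ug/mL, Zizyphi 20 ug/mL, both of these dose contrasts and the gingers at 500 ug/mL gave 0.

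Leaving out 1 library gave 0 to 1 calls for fresh ginger 20 ug/mL, 0 to 7 for Pinelliae 500 ug/mL, 0 to 4 for Zizyphi 500 ug/mL, 0 to 2 for Zizyphi 20 ug/mL, 0 to 3 between Pinelliae doses and 2 to 8 between Zizyphi doses. Scutellariae 100 ug/mL gave 5 to 8 (5 without its replicate 1), Coptidis 8.4 ug/mL 4 to 8 (4 without vehicle replicate 2) and the gingers at 500 ug/mL 0 to 5 (0 without replicate 2 and 1 without replicate 3 of fresh ginger, 5 without replicate 2 of dried). No common deviation of same-numbered libraries was detected (correlations of -0.476 to 0.149 between title codes and -0.117 to 0.247 within one, median 0.022). For these correlations vehicle and wortmannin were counted as sharing a title code. Differently numbered libraries gave -0.343 to 0.504 between title codes and -0.264 to 0.237 within one. A pairing by number was thus not detected, which does not show that there was none. The replicate block moved the count for fresh ginger 20 ug/mL from 1 to 2 and ended none of the 308 calls.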
